A study of Homo sapiens with 24 samples.

Results

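The subject is the replication-dependent histone genes of LNCaP prostate cancer cells, taken by name as every gene whose older symbol starts with HIST1H, HIST2H, HIST3H or HIST4H. The rule found 72 members among 23946 genes: 6 code for H1 linker histones, 18 for H2A, 20 for H2B, 15 for H3 and 13 for H4. By cluster 54 belong to HIST1, 14 to HIST2, 3 to HIST3 and 1 to HIST4.

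The study asked which genes the androgen receptor antagonist enzalutamide turns on in LNCaP cells and what the transcription factor GATA2 does there. In the ligand experiment, cells received vehicle, 10 µM enzalutamide for 4 or 24 h, or 10 nM of the androgen DHT for 4 or 24 h, with 2 libraries in each condition once vehicle columns sharing a replicate number had been added together. The labels give no time for that vehicle. In the siRNA experiment, cells carrying a control siRNA (siControl) or one against GATA2 (siGATA2) were kept for 24 h in vehicle or in enzalutamide at 25 µM, with 3 libraries in each of the 4 conditions. The doses of enzalutamide differ between the experiments, so their values are given side by side and are not compared.

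Replication-dependent histone genes supply the core histones H2A, H2B, H3 and H4, around which DNA winds, and the linker histone H1, which binds where DNA enters and leaves the nucleosome. Their mRNAs are made mostly in S phase and usually end in a conserved stem-loop in place of a poly(A) tail; the stem-loop binding protein SLBP holds that end, and NPAT, a substrate of cyclin E with CDK2, switches the genes on. A minority of histone transcripts runs on to an ordinary polyadenylation signal, and such tailed forms are known from differentiated and non-dividing cells. All libraries were poly(A)-enriched, so the values below are taken as polyadenylated histone mRNA and not as the bulk of histone mRNA. Some untailed RNA was present in the libraries as well, so a part of untailed histone mRNA in these values cannot be told apart.

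Most of the genes lie in clusters. In the GENCODE annotation of GRCh38, 33 HIST1 members lie within chr6:25726132-26285638, 5 within chr6:27125897-27147515 and 16 within chr6:27807444-27893843. On chromosome 1, 12 HIST2 members lie within chr1:149782689-149887916 and the 3 HIST3 members within chr1:228424845-228460470, while HIST2H2BA (chr1:121108210-121117257), HIST2H3PS2 (chr1:143905556-143905966) and, on chromosome 12, HIST4H4 each lie alone. Of the 72, 69 are annotated as protein coding and 3 as pseudogenes, namely HIST2H2BA, HIST2H2BC and HIST1H2APS1.

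Promoters of 59 of the 72 members, 250 bases before to 50 after the start, were found in RefSeq (GRCh38.p14) by their older symbols. Both strands were searched for the octamer ATTTGCAT, for TATAAA and for CCAAT, each on its own, so that matches may overlap, as a TATAAA and its reverse complement do in HIST1H2BK. The octamer was present in 21 of 59 member promoters (35.6%) against 492 of 27305 promoters of all genes (1.80%), TATAAA in 40 (67.8%) against 3264 (12.0%), and CCAAT in 50 (84.7%) against 9747 (35.7%). The types differed: the octamer was found in 11 of 16 H2A and 9 of 13 H2B promoters, in 1 of 13 H3 promoters and in 0 of the 6 H1 and 11 H4 promoters. CCAAT was in all 6 H1, 16 H2A, 13 H2B and 13 H3 promoters but in 2 of 11 H4 promoters. All 3 motifs stood together in 16 promoters and none of them in 4. A match describes the letters in the window; it is not a site.

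The promoters of 4 members are shown because their mRNAs are abundant and moved in different directions in the comparisons below: HIST1H1C (chr6:26056421-26056720), HIST2H2BE (chr1:149886633-149886932), HIST3H2A (chr1:228457824-228458123) and HIST1H2BK (chr6:27146809-27147108). All are on the minus strand of GRCh38.p14 and are written in the direction of transcription, with octamer, TATAAA and CCAAT matches of either strand in capitals.
HIST1H1C: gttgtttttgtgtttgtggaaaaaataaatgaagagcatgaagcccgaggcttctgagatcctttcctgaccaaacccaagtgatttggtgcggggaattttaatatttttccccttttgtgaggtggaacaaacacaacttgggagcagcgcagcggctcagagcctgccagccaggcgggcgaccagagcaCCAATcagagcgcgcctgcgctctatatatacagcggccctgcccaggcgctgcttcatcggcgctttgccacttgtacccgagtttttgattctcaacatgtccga
HIST2H2BE: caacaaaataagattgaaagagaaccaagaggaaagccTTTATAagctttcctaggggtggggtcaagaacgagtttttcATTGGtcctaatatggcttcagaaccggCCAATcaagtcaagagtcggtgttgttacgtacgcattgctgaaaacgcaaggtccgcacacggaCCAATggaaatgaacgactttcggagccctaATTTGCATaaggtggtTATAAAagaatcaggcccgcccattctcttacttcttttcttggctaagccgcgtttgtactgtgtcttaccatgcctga
HIST3H2A: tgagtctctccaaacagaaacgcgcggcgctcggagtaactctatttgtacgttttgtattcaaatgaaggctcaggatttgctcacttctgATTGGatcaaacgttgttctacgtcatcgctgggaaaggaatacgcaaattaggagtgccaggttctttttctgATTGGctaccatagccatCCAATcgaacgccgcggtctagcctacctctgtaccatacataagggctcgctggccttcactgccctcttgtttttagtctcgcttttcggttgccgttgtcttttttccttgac
HIST1H2BK: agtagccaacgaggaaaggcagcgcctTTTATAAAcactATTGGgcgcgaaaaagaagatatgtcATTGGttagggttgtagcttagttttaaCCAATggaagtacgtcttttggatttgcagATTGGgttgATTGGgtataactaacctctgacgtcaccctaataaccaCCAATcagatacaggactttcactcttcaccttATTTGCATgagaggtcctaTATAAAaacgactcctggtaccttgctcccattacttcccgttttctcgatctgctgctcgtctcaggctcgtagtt
HIST1H1C holds a single CCAAT and neither other motif, and HIST3H2A holds 3 CCAAT alone. HIST2H2BE and HIST1H2BK each hold 1 octamer, with 2 and 3 TATAAA and 3 and 6 CCAAT respectively.

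Annotated 3′ ends were read from GENCODE after the values had been seen. Of the 69 protein-coding members, 36 have an annotated 3′ UTR, and the histone stem-loop was found in 23 of these, against 2 of 19096 other genes. In 16 of the 23, an annotated transcript runs more than 100 bases past the loop, and 11 of those 16 carry the polyadenylation signal AATAAA in their last 50 bases. Over the 36 members AATAAA was there in 19 (52.8%), against 13714 of 19096 other genes (71.8%). The stem-loop, in capitals in 30 bases of each, is shown for 3 abundant members whose transcripts run on and for HIST1H2BL, whose transcript stops near the loop. The loops lie at chr1:149886181-149886210 on the minus strand for HIST2H2BE, chr6:26124662-26124691 on the plus strand for HIST1H2AC, chr6:26285124-26285153 on the minus strand for HIST1H4H and chr6:27807477-27807506 on the minus strand for HIST1H2BL, all in GRCh38.
HIST2H2BE: ctccaaaGGCTCTTTTCAGAGCCacccacc
HIST1H2AC: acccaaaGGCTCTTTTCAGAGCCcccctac
HIST1H4H: aaccaaaGGCCCTTTTCAGGGCCgcccact
HIST1H2BL: acccaaaGGCTCTTTTCAGAGCCactcact
The HIST2H2BE transcript continues for 1729 bases after the loop, HIST1H2AC for 1114 and HIST1H4H for 630, each with AATAAA near its end. HIST1H2BL continues for 40 bases with no AATAAA. The HIST1H4H loop differs from the other 3 in the letters of its stem. These genes do not stand for all abundant members. HIST1H3H also runs on with AATAAA near its end, while HIST1H2BG and HIST3H2A run on without it. In HIST1H2BD and HIST1H3E no loop was found, and HIST1H1C and HIST1H2BK have no annotated 3′ UTR.

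The labels were checked on known genes. GATA2 stood at 83.8, 77 and 86.1 RPKM (reads scaled by transcript length and library depth) in siControl vehicle, 128, 132 and 128 with enzalutamide, 54.3, 53.4 and 46.6 in siGATA2 vehicle and 60.1, 64.7 and 61.5 with enzalutamide. The siGATA2 libraries were all below the siControl ones (in vehicle: log2 fold change -0.68, standard error 0.06, adjusted p = 3.12e-06, limma). KLK3, the androgen target that codes for PSA, had 259 and 253 CPM (counts scaled by library depth) in vehicle, 109 and 111 after enzalutamide for 24 h and 2095 and 2139 after DHT for 24 h. The DHT libraries were the highest and the enzalutamide libraries the lowest of these.

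Members were found unevenly. The ligand experiment lists 68 members and the siRNA experiment 66, with 62 in both; the vehicle table of the ligand experiment holds 62, and absent entries were taken as 0. A test was possible for 49 members in the ligand experiment and 57 in the siRNA experiment, 44 of them in both. The 19 untested in the ligand experiment had at most 76 counts over all libraries, and the 9 untested in the siRNA experiment reached at most 0.0343 RPKM, 4 of them at 0 everywhere. HIST2H2AA3 and HIST2H2AA4 have identical values in both experiments, as do HIST2H4A and HIST2H4B, and HIST2H3A and HIST2H3C in the ligand experiment, so each such pair is 1 measurement. HIST1H2BN overlaps HIST1H2AK and HIST1H2AL, HIST1H3J overlaps HIST1H2AM, HIST2H4A overlaps HIST2H3C, and HIST2H3A overlaps HIST2H4B, so reads of these neighbours may not be separable. HIST2H2AA3 had 20.9 and 24.5 CPM in ligand vehicle but 0, 0 and 0.00796 RPKM in siControl vehicle, so members are compared only within an experiment.

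A few genes carried most of the signal. On the per-length scale of the siRNA experiment the linker histone gene HIST1H1C averaged 300.3 RPKM over all 12 libraries, or 42.6% of the summed members. HIST2H2BE followed at 70.1 RPKM (9.94%), then HIST1H2AC at 61.5, HIST1H2BK at 55.3, HIST1H2BD at 38.6, HIST1H4H at 33.2, HIST3H2A at 23.6, HIST1H3H at 23.4, HIST1H2BG at 16.4 and HIST1H3E at 11.6. This order is set in part by the siGATA2 libraries, whose sums were the higher. In siControl vehicle HIST1H1C held 35.6% of the sum at 152.6 RPKM, HIST1H2BK came next at 60.7 RPKM, and HIST1H2AC at 34.7 and HIST2H2BE at 33.4 followed; in siControl with enzalutamide HIST2H2BE came sixth at 39.4. In siGATA2 vehicle HIST1H1C held 45.1% at 415 RPKM and HIST2H2BE came next at 105. Over all 12 libraries these 10 were the only members at 10 RPKM or more; 17 averaged 1 to 10 RPKM and 39 less than 1 RPKM. In the ligand experiment 8 members averaged at least 10 CPM, 22 between 1 and 10, and 38 below 1. The order differed there, on a scale without gene length. HIST2H2BE averaged 137.7 CPM over all libraries, HIST1H2BK 106.7 and HIST1H1C 76.5. HIST2H3PS2 followed at 32.2 CPM, against 0.122 RPKM in the siRNA experiment.

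Summed over members, the ligand libraries held 519 and 540.5 CPM in vehicle, 550.3 and 529 with enzalutamide at 4 h, 529 and 537 at 24 h, 508 and 508 with DHT at 4 h and 428 and 431 at 24 h. The DHT 24 h libraries stood apart below all others, at 81.0% of vehicle. Both entries of each identical pair are added in these sums and in those of the siRNA experiment. In the siRNA experiment the sums were 433, 403 and 449.7 RPKM in siControl vehicle, 562, 574 and 562 with enzalutamide, 915, 941 and 906 in siGATA2 vehicle and 888, 925 and 896 with enzalutamide. All siGATA2 libraries were above all siControl libraries, and siControl with enzalutamide was above siControl vehicle. In bulk RNA, fewer cells holding an mRNA and less of it in each cell cannot be told apart.

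**Figure D1:**
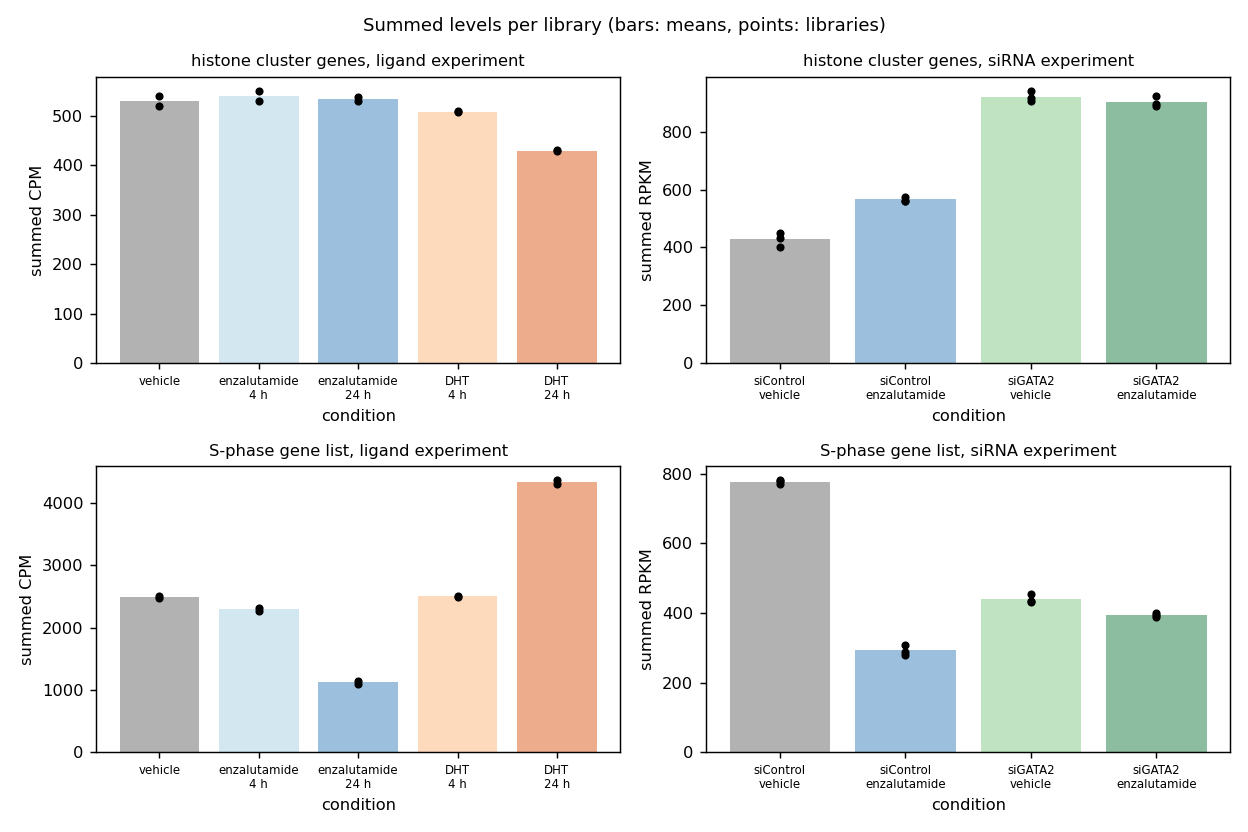
Summed level of the histone genes by library, in CPM for the ligand experiment and RPKM for the siRNA experiment, and of the 32 S-phase genes beneath it, with points for libraries and bars for means. For the histone genes the DHT 24 h libraries lie at 428 and 431 CPM, below every other ligand library, and the siGATA2 libraries lie between 888 and 941 RPKM, above the siControl range of 403 to 574. Both entries of each identical pair are added.

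DHT for 24 h lowered the polyadenylated mRNA of more histone genes than it raised. Of 49 members, 5 rose and 22 fell against vehicle at an adjusted p below 0.05, beside 26.9% of all genes up and 23.2% down; here and below, edgeR tested the ligand libraries, p was adjusted over all tested genes, and fold changes, also those given as bare values beside a gene, are log2. The median member stood at -0.29 and the median of all genes at 0.00. With identical entries counted once, 25 of 46 were called. By type the counts up and down, identical entries included, were 2 and 1 of 3 H1, 0 and 6 of 12 H2A, 1 and 5 of 14 H2B, 0 and 5 of 10 H3, and 2 and 5 of 10 H4 genes.

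Among the H1 genes, HIST1H1C fell. It measured 78.4 and 85.8 in vehicle, 80.8 and 73.1 in enzalutamide at 4 h, 79.3 and 77.7 in enzalutamide at 24 h, 77.4 and 77.3 in DHT at 4 h, 66.9 and 68.1 in DHT at 24 h (all CPM). Both DHT 24 h libraries were the lowest of the 10 (log2 fold change -0.28, standard error 0.05, adjusted p = 0.000732, edgeR). HIST1H1B and HIST1H1E moved the other way at far lower levels and are named because they were among the 5 members that rose, a choice made after their values were seen. HIST1H1B had 0.182 and 0.102 CPM in vehicle and 0.567 and 0.408 after DHT at 24 h, without overlap (1.72); the call was lost in DESeq2 (1.76) and without DHT 24 h replicate 1 (1.43). HIST1H1E had 0.248 and 0.228 CPM in vehicle and 0.494 and 0.51 after DHT, again without overlap (1.05), but that call was lost in 9 of 17 alternative settings, among them each that left out a vehicle or a DHT 24 h library (1.01 to 1.12).

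Among the H2A genes every called member fell. HIST1H2AC measured 15.6 and 18.3 in vehicle, 18.7 and 16.8 in enzalutamide at 4 h, 18.6 and 18.9 in enzalutamide at 24 h, 15.1 and 15.4 in DHT at 4 h, 11.7 and 11.3 in DHT at 24 h (CPM). The DHT 24 h libraries were the lowest by a wide step (log2 fold change -0.55, standard error 0.08, adjusted p = 9.65e-05, edgeR). The paired entries HIST2H2AA3 and HIST2H2AA4, counted as 1 measurement, had 20.9 and 24.5 CPM in vehicle and 16.2 and 17.3 after DHT at 24 h, a fold change of -0.43 with no overlap.

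Of the H2B genes 1 rose and 5 fell. HIST2H2BE measured 141 and 144 in vehicle, 155 and 157 in enzalutamide at 4 h, 149 and 150.5 in enzalutamide at 24 h, 142 and 142 in DHT at 4 h, 99.2 and 96.5 in DHT at 24 h (CPM). The DHT 24 h libraries were the lowest and the enzalutamide 4 h libraries the highest (DHT at 24 h against vehicle: log2 fold change -0.54, standard error 0.03, adjusted p = 3.98e-08, edgeR). HIST1H2BD had 15.1 and 16.2 CPM in vehicle and 10.2 and 10.5 after DHT at 24 h (log2 fold change -0.59, standard error 0.08, adjusted p = 2.77e-05, edgeR). HIST1H2BC went from 5.33 and 6.52 to 2.87 and 3.29 CPM, with the groups well apart (log2 fold change -0.94, standard error 0.13, adjusted p = 3.85e-05, edgeR). HIST1H2BG held 3.19 and 3.6 CPM in vehicle and 1.99 and 1.89 after DHT, again apart (log2 fold change -0.79, standard error 0.14, adjusted p = 0.000313, edgeR). HIST2H2BF, at 3.35 and 3.53 against 1.85 and 1.45 CPM, fell most among the H2B genes above 1 CPM (log2 fold change -1.04, standard error 0.19, adjusted p = 0.000559, edgeR). The annotated pseudogene HIST2H2BC rose instead. It had 6.97 and 6.29 CPM in vehicle and 8.38 and 9.76 after DHT, the highest of all libraries (log2 fold change 0.44, standard error 0.11, adjusted p = 0.00438, edgeR). HIST1H2BK measured 109 and 111 CPM in vehicle and 113 and 111 after DHT and did not pass the test (fold change 0.03).

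Among the H3 genes, HIST1H3D measured 2.54 and 2.92 in vehicle, 2.99 and 2.78 in enzalutamide at 4 h, 2.19 and 2.9 in enzalutamide at 24 h, 2.68 and 2.03 in DHT at 4 h, 1.5 and 1.71 in DHT at 24 h (CPM). The DHT 24 h values were the lowest (log2 fold change -0.77, standard error 0.19, adjusted p = 0.00461, edgeR). HIST1H3E had 3.25 and 3.98 CPM in vehicle and 2.3 and 2.42 after DHT (fold change -0.60), and HIST1H3H had 5.47 and 6.35 in vehicle and 4.15 and 5.2 after DHT (-0.34). Both fell, with no overlap against vehicle, but the HIST1H3H call was lost in DESeq2 and without vehicle replicate 2 (-0.24) or DHT 24 h replicate 1 (-0.18).

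The H4 genes split. HIST1H4C measured 2.38 and 2.34 in vehicle, 2.94 and 2.19 in enzalutamide at 4 h, 1.72 and 1.96 in enzalutamide at 24 h, 2.56 and 2.43 in DHT at 4 h, 6.22 and 7.77 in DHT at 24 h (CPM). DHT at 24 h gave the highest values by far (log2 fold change 1.56, standard error 0.15, adjusted p = 2.43e-06, edgeR). HIST1H4H measured 8.14 and 6.9 in vehicle, 7.74 and 8.51 in enzalutamide at 4 h, 9.92 and 9.7 in enzalutamide at 24 h, 7.41 and 8.14 in DHT at 4 h, 5.72 and 5.05 in DHT at 24 h (CPM). Its lowest values came with DHT at 24 h and its highest with enzalutamide at 24 h (DHT at 24 h against vehicle: log2 fold change -0.49, standard error 0.11, adjusted p = 0.00199, edgeR). HIST1H4J had 1.4 and 2.16 CPM in vehicle and 0.695 and 1.33 after DHT at 24 h, while enzalutamide at 4 h gave 0.705 and 1.38. The vehicle and DHT 24 h groups were close but did not overlap. Its fold change with DHT was -0.83, but the call was lost in DESeq2 (-0.82), and without vehicle replicate 2 (-0.52), DHT 24 h replicate 1 (-0.39), or any single library of enzalutamide at 24 h or DHT at 4 h (-0.83 in each), and it was -1.32 without DHT 24 h replicate 2. HIST1H4K, the fifth member that rose and also named after its values were seen, had 0.215 and 0.152 CPM in vehicle and 0.896 and 0.357 after DHT (1.78), and lost the call without DHT 24 h replicate 1 (0.90).

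**Figure D2:**
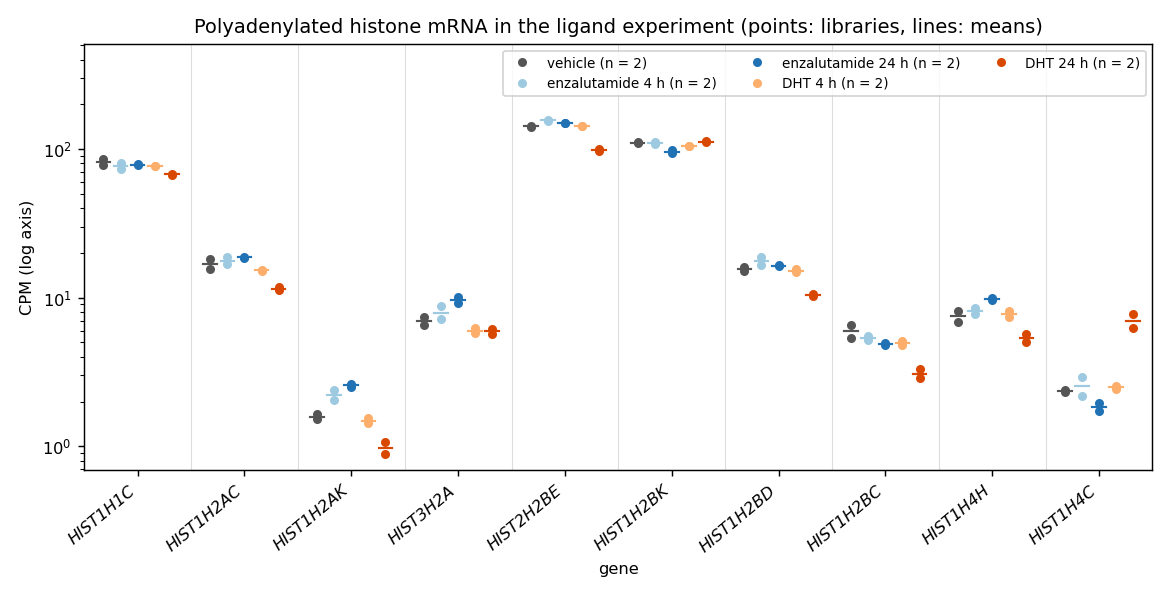
CPM of 10 histone genes in the ligand experiment on a log axis, with points for libraries and lines for means. HIST2H2BE lies at 99.2 and 96.5 CPM after DHT for 24 h and at 141 or above in every other library, while HIST1H4C lies at 6.22 and 7.77 CPM after DHT for 24 h, above its vehicle values of 2.38 and 2.34 CPM.

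After 4 h of DHT, 0 of 49 members rose and 0 fell in edgeR, beside 4.66% of all genes up and 2.11% down. DESeq2 also called 0, and 2 members had an unadjusted p below 0.05. The median member stood at -0.09 and the median of all genes at -0.01. Against DHT at 4 h, DHT at 24 h raised 4 members and lowered 18, beside 26.3% and 23.5% of all genes. The median was -0.21 for members and 0.00 for all genes. With identical entries counted once, 21 of 46 were called. DESeq2 called 14 members where edgeR called 22. HIST1H4C had 2.56 and 2.43 CPM at 4 h and 6.22 and 7.77 at 24 h (log2 fold change 1.48, standard error 0.15, adjusted p = 3.79e-06, edgeR). HIST1H2BC had 4.79 and 5.07 CPM at 4 h and 2.87 and 3.29 at 24 h (-0.69), and HIST1H2BG had 3.22 and 2.94 at 4 h and 1.99 and 1.89 at 24 h (-0.66). Neither pair of groups overlapped, and these falls held without any single library. Column names of the ligand tables begin with 1 of 3 prefixes (ZC1, ZC2 and ZC3), whose meaning the labels do not give. The DHT 4 h and 24 h libraries share no prefix, but vehicle replicate 1 has a column under each. Against vehicle of the same prefix, the difference at 4 h and at 24 h was 0.07 and 1.46 for HIST1H4C, -0.16 and -0.95 for HIST1H2BC and -0.19 and -0.69 for HIST1H2BG.

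Weaker differences between the DHT times depended on single libraries, and some on the tool. HIST2H2BF, at 3.34 and 2.29 CPM at 4 h and 1.85 and 1.45 at 24 h, fell, with a fold change of -0.75, but not at the threshold without DHT 4 h replicate 1 (-0.45) or DHT 24 h replicate 2 (-0.61). HIST2H2BC rose by 0.43, from 6.11 and 7.28 to 8.38 and 9.76 CPM, and lost the call without DHT 4 h replicate 1 (0.31) or DHT 24 h replicate 2 (0.32). HIST1H2AK fell, with a fold change of -0.59, from 1.43 and 1.54 to 1.06 and 0.892 CPM, and lost it in DESeq2 (-0.60) and without DHT 4 h replicate 2 (-0.54) or DHT 24 h replicate 2 (-0.49). None of these pairs of groups overlapped. HIST1H2BL had 1.11 and 1.32 CPM at 4 h and 1.52 and 1.91 at 24 h, a rise of 0.48 that was lost without DHT 4 h replicate 1 (0.36), DHT 4 h replicate 2 (0.61), DHT 24 h replicate 2 (0.31) or either enzalutamide 24 h library (0.48), in DESeq2 (0.49), with library totals (0.44) and when only the groups compared were fitted (0.47). HIST1H4J fell, with a fold change of -0.86, from 1.75 and 1.78 to 0.695 and 1.33 CPM. Its call was lost without DHT 24 h replicate 1 (-0.42), DHT 4 h replicate 1 (-0.87) or 2 (-0.85) or either enzalutamide 24 h library (-0.86), and in DESeq2 (-0.83), and its value was -1.35 without DHT 24 h replicate 2.

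Enzalutamide for 24 h moved few histone genes. Against vehicle 4 of 49 members rose and 4 fell, beside 16.4% of all genes up and 17% down, so the share of members called was below that of all genes, and 14 members had an unadjusted p below 0.05. The median member stood at 0.06 and the median of all genes at 0.01. DESeq2 called 5 members. The count of 8 became 5 without vehicle replicate 1 or 2, 3 without enzalutamide 24 h replicate 1 and 4 without replicate 2.

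The H2A genes HIST3H2A and HIST1H2AK rose with enzalutamide at 24 h. HIST3H2A measured 6.54 and 7.36 in vehicle, 8.75 and 7.13 in enzalutamide at 4 h, 9.21 and 10.1 in enzalutamide at 24 h, 6.28 and 5.74 in DHT at 4 h, 5.69 and 6.17 in DHT at 24 h (CPM). The enzalutamide 24 h libraries were the highest (0.48), and the call was lost without vehicle replicate 1 (0.38) or enzalutamide 24 h replicate 2 (0.40). HIST1H2AK measured 1.52 and 1.65 in vehicle, 2.37 and 2.05 in enzalutamide at 4 h, 2.64 and 2.52 in enzalutamide at 24 h, 1.43 and 1.54 in DHT at 4 h, 1.06 and 0.892 in DHT at 24 h (CPM). Enzalutamide at 24 h gave the highest values and DHT at 24 h the lowest (enzalutamide at 24 h against vehicle: log2 fold change 0.71, standard error 0.15, adjusted p = 0.00319, edgeR).

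The H2B gene HIST1H2BK measured 109 and 111 in vehicle, 112 and 109 in enzalutamide at 4 h, 93.9 and 98 in enzalutamide at 24 h, 105 and 105 in DHT at 4 h, 113 and 111 in DHT at 24 h (CPM). The enzalutamide 24 h libraries were the lowest (log2 fold change -0.20, standard error 0.04, adjusted p = 0.00135, edgeR). HIST2H2BC had 6.97 and 6.29 CPM in vehicle and 5.42 and 5.12 after enzalutamide, a fold change of -0.34 that was lost without vehicle replicate 1 (-0.27) or enzalutamide 24 h replicate 1 (-0.39) or 2 (-0.31), and in DESeq2 (-0.35). HIST1H4H rose by 0.37, but not at the threshold without vehicle replicate 2 (0.26) or enzalutamide 24 h replicate 1 (0.34) or 2 (0.38). HIST2H3PS2, an H3 gene, had 36.6 and 29.7 CPM in vehicle and 38.9 and 39.5 after enzalutamide. Its rise of 0.23 was 0.09 without vehicle replicate 2, 0.23 and 0.21 without enzalutamide 24 h replicate 1 or 2, all below the threshold, and 0.39 without vehicle replicate 1. The other 2 that fell, HIST1H2BJ (-0.67) and HIST1H3A (-1.48), averaged below 1 CPM and were named after their values were seen; both calls were lost whenever a vehicle or an enzalutamide 24 h library was left out.

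After 4 h of enzalutamide 2 members rose and 0 fell, beside 6.94% of all genes up and 6.68% down, with 7 members at an unadjusted p below 0.05; DESeq2 called 1. HIST2H2BE had 141 and 144 CPM in vehicle and 155 and 157 after 4 h, groups apart but close (0.13). This call was lost without vehicle replicate 1 (0.11) or 2 (0.14), enzalutamide 4 h replicate 2 (0.11), or any single library of enzalutamide at 24 h or DHT at 4 h (0.12 in each), and when only the groups compared were fitted. The count was 1 without each of these except enzalutamide 4 h replicate 2, without which it was 4. The other member, HIST1H4K, named after its values were seen, had 0.215 and 0.152 CPM in vehicle and 0.917 and 0.81 after 4 h. It lay below 1 CPM but clear of vehicle (2.17).

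Between 4 and 24 h of enzalutamide 3 members rose and 4 fell, beside 11.7% of all genes up and 12.9% down; the count of 7 was 4 without vehicle replicate 1 or 2, 2 without enzalutamide 24 h replicate 1 and 3 without replicate 2. DESeq2 called 2 members, and without a filter on low counts 12 were called. HIST1H2BK fell, with a fold change of -0.20, from 112 and 109 to 93.9 and 98 CPM. HIST2H3PS2 rose by 0.28, from 31.9 and 32.7 to 38.9 and 39.5 CPM, and lost the call without enzalutamide 24 h replicate 1 (0.28) or 2 (0.26). HIST1H2AI, at 1.88 and 1.74 CPM at 4 h and 2.35 and 2.66 at 24 h, rose by 0.47, and lost the call in 15 of 17 alternative settings, among them RLE, DESeq2, a replicate block and each that left out 1 of the 10 libraries, at values from 0.37 without enzalutamide 24 h replicate 2 to 0.55 without replicate 1. HIST1H4K (-1.72), HIST1H2AL (-1.89), HIST2H2AC (-0.84) and HIST1H3J (1.07) were also called, averaged below 1 CPM and were named after their values were seen. The call was lost in 1 of 16 alternative settings for HIST1H4K, 10 of 15 for HIST1H2AL, 2 of 16 for HIST2H2AC and 12 of 16 for HIST1H3J. The 2 enzalutamide times have different prefixes. Against vehicle replicate 1 of the same prefix, the difference at 4 h and at 24 h was 0.04 and -0.14 for HIST1H2BK, -0.24 and 0.16 for HIST2H3PS2 and -0.03 and 0.64 for HIST1H2AI.

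The 2 ligands were also set against each other at 24 h. DHT against enzalutamide raised 12 members and lowered 25 of 49, beside 31.3% and 33.6% of all genes, with a median of -0.48 for members and -0.03 for all genes; with identical entries counted once, 34 of 46 were called. HIST1H2AK stood at 2.64 and 2.52 CPM with enzalutamide and 1.06 and 0.892 with DHT (log2 fold change -1.39, standard error 0.17, adjusted p = 7.75e-06, edgeR). HIST1H4C stood at 1.72 and 1.96 CPM with enzalutamide and 6.22 and 7.77 with DHT (log2 fold change 1.92, standard error 0.16, adjusted p = 2.08e-07, edgeR). The groups were far apart in both. HIST2H2BF (-1.13), HIST1H4E (-1.05) and HIST1H2BG (-0.90) were also lower with DHT, and HIST2H2BC (0.78) and HIST1H2BK (0.22) higher. HIST1H4J was lower, with a fold change of -0.96, -0.87 without enzalutamide 24 h replicate 2 and -0.51 without DHT 24 h replicate 1, both below the threshold. HIST1H2AG, at 0.789 and 0.746 CPM with enzalutamide and 1.06 and 1.25 with DHT, was higher by 0.58. It lost the call without enzalutamide 24 h replicate 1 (0.63) or 2 (0.55) or DHT 24 h replicate 1 (0.71) or 2 (0.48), and also in DESeq2 (0.61), with library totals (0.51), and with a replicate block or all 4 vehicle columns as samples. The ligand comparisons share control or treated libraries with each other.

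When treated libraries were set only against vehicle columns of the same prefix, the direction of every called member was kept: 2 of 2 for enzalutamide at 4 h, 8 of 8 at 24 h and 27 of 27 for DHT at 24 h. The median member was then 0.04, 0.09 and -0.20 in these, and -0.11 for DHT at 4 h. The same libraries and vehicle columns gave the calls, so the agreement in direction is no independent evidence.

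A fold above 2 with an unadjusted p below 0.05, the second way of calling, selected 1 of 49 members for enzalutamide at 4 h (0.752% of all genes), 2 at 24 h (2.89%) and 4 between its times (2.3%), 0 for DHT at 4 h (1.2%), 6 at 24 h (5.86%) and 5 between its times (4.54%), and 13 for DHT against enzalutamide (11.8%).

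siGATA2 raised polyadenylated histone mRNA in vehicle-treated cells. Of 57 members tested with limma on log2 RPKM, 27 rose and 3 fell, beside 24.2% of all genes up and 31.4% down, with a median of 0.60 for members and -0.03 for all genes. Counts up and down were 4 and 0 of 6 H1, 4 and 1 of 16 H2A, 10 and 2 of 17 H2B, 4 and 0 of 9 H3, and 5 and 0 of 9 H4 genes.

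The linker histone HIST1H1C measured 154, 139 and 164 in siControl vehicle, 218, 222 and 226 in siControl with enzalutamide, 419, 433 and 392 in siGATA2 vehicle, 406, 428 and 402 in siGATA2 with enzalutamide (RPKM). Every siGATA2 library was above every siControl library, and in siControl cells enzalutamide lay above vehicle (siGATA2 in vehicle: log2 fold change 1.44, standard error 0.06, adjusted p = 1.09e-08, limma). HIST1H1E, a second linker histone, measured 1.5, 1.14 and 1.49 in siControl vehicle, 1.11, 1.35 and 1.21 in siControl with enzalutamide, 5.74, 5.34 and 5.3 in siGATA2 vehicle, 5.69, 5.65 and 5.41 in siGATA2 with enzalutamide (RPKM). The siGATA2 libraries were again all higher, and among the named members it rose most (log2 fold change 1.92, standard error 0.10, adjusted p = 6.17e-08, limma). The summed H1 genes were 156, 140.5 and 166 RPKM in siControl vehicle and 425, 439 and 399 in siGATA2 vehicle.

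Core histone genes rose as well. HIST2H2BE measured 34.2, 32.6 and 33.3 in siControl vehicle, 38.5, 39.2 and 40.5 in siControl with enzalutamide, 103, 102 and 111 in siGATA2 vehicle, 102, 100.2 and 104 in siGATA2 with enzalutamide (RPKM). The siGATA2 values were well above all siControl values (log2 fold change 1.65, standard error 0.03, adjusted p = 1.41e-10, limma). HIST1H4H measured 15.9, 16.3 and 17.2 in siControl vehicle, 19.9, 18.3 and 15.5 in siControl with enzalutamide, 44.9, 50.0 and 52.3 in siGATA2 vehicle, 47.5, 51.7 and 48.9 in siGATA2 with enzalutamide (RPKM). It showed the same separation (log2 fold change 1.57, standard error 0.08, adjusted p = 7.40e-08, limma). HIST1H2AC measured 36.3, 33.3 and 34.7 in siControl vehicle, 50.7, 53.5 and 45.1 in siControl with enzalutamide, 81.2, 85.5 and 77.2 in siGATA2 vehicle, 78, 85.8 and 77.3 in siGATA2 with enzalutamide (RPKM), with 3 separate levels, siControl vehicle lowest and siGATA2 highest (log2 fold change 1.22, standard error 0.07, adjusted p = 8.37e-08, limma).

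HIST1H2BG had 8.96, 7.66 and 7.58 RPKM in siControl vehicle and 23.6, 24.2 and 24.2 in siGATA2 vehicle, with no overlap (log2 fold change 1.57, standard error 0.07, adjusted p = 1.69e-08, limma). HIST1H3H had 15.5, 15 and 15.9 RPKM in siControl vehicle and 29.2, 32 and 32.8 in siGATA2 vehicle, and HIST1H3E had 8.34, 6.83 and 8.25 against 16.8, 16.1 and 14.7. Both H3 genes were higher in every siGATA2 library (1.01 and 1.02). Low members were among the largest rises: HIST2H3D at 0.311, 0.284 and 0.149 against 0.702, 1.69 and 1.29 RPKM (1.89), HIST2H2BF at 0.32, 0.378 and 0.478 against 1.5, 1.35 and 1.65 (1.71) and HIST1H4B at 0.318, 0.242 and 0.476 against 0.98, 1.14 and 1.62 (1.60). Their groups did not overlap. With 1 RPKM added in place of 0.1 before the log, these became 0.81, 0.84 and 0.73 and were still called.

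The 3 members that fell with siGATA2 in vehicle were 2 H2B genes and 1 H2A gene. HIST1H2BL measured 3.76, 3.09 and 3.87 in siControl vehicle, 4.76, 4.73 and 4.7 in siControl with enzalutamide, 1.45, 1.38 and 1.15 in siGATA2 vehicle, 1.78, 1.72 and 1.45 in siGATA2 with enzalutamide (RPKM). All siGATA2 libraries were below all siControl libraries (log2 fold change -1.36, standard error 0.11, adjusted p = 1.37e-06, limma). HIST3H2A measured 22.8, 18.8 and 22 in siControl vehicle, 40.6, 43.6 and 38.3 in siControl with enzalutamide, 16.8, 16.5 and 15 in siGATA2 vehicle, 16.8, 16.6 and 14.9 in siGATA2 with enzalutamide (RPKM). It was highest in siControl with enzalutamide and lowest in siGATA2 (log2 fold change -0.39, standard error 0.08, adjusted p = 0.00183, limma). HIST1H2BK measured 60.2, 57.7 and 64.3 in siControl vehicle, 53.9, 53.4 and 55.9 in siControl with enzalutamide, 55.2, 51 and 56 in siGATA2 vehicle, 49.7, 51.5 and 54.7 in siGATA2 with enzalutamide (RPKM). The siControl vehicle libraries were the highest of the 12. Its fall was small (-0.17) and was lost without siControl vehicle replicate 3 (-0.13), without siGATA2 vehicle replicate 2 (-0.13), and with each library centred on its median (-0.09).

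**Figure D3:**
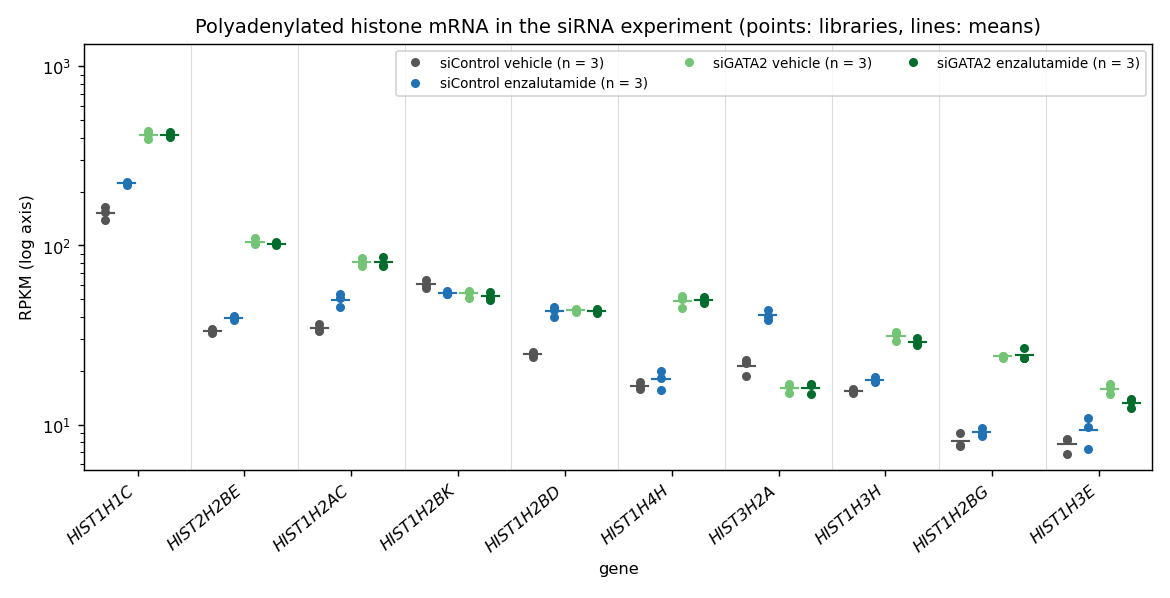
RPKM of the 10 most abundant histone genes in the siRNA experiment on a log axis, with points for libraries and lines for means. HIST1H1C lies at 139 to 164 RPKM in siControl vehicle and at 392 to 433 in siGATA2 vehicle, and HIST3H2A peaks at 38.3 to 43.6 RPKM in siControl with enzalutamide.

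Under enzalutamide, siGATA2 against siControl raised 25 members and lowered 6, beside 26.3% of all genes up and 28.1% down, with a median of 0.44 for members and 0.00 for all genes. HIST1H1E stood at 1.11, 1.35 and 1.21 RPKM in siControl and 5.69, 5.65 and 5.41 in siGATA2 (log2 fold change 2.10, standard error 0.10, adjusted p = 3.18e-08, limma). HIST2H2BE (1.37), HIST1H4H (1.46), HIST1H2BG (1.43) and HIST1H1C (0.89) rose with no overlap. HIST1H4B, at 0.414, 0.135 and 0.225 RPKM in siControl against 1.06, 1.61 and 1.07 in siGATA2, rose by 1.96, or by 0.83 with 1 RPKM added. HIST3H2A (log2 fold change -1.34, standard error 0.08, adjusted p = 1.93e-07, limma) and HIST1H2BL (log2 fold change -1.47, standard error 0.11, adjusted p = 7.66e-07, limma) fell, all siGATA2 values being below those of siControl. HIST1H2AK had 5.55, 6.2 and 5.45 RPKM in siControl with enzalutamide and 3.48, 4.07 and 4.15 in siGATA2 with enzalutamide (log2 fold change -0.55, standard error 0.09, adjusted p = 0.000283, limma). HIST1H2BN had 3.22, 3.66 and 3.34 RPKM in siControl against 2.47, 2.28 and 2.16 in siGATA2 (log2 fold change -0.55, standard error 0.07, adjusted p = 5.44e-05, limma); both of these overlapping neighbours were lower in every siGATA2 library. HIST1H2AM, at 6.7, 6.68 and 5.92 against 5.32, 5.68 and 5.74 RPKM, fell, with a fold change of -0.20, and lost the call without siControl enzalutamide replicate 1 or 2 or siGATA2 enzalutamide replicate 1 (-0.17 in each) and after centring (-0.16). The sixth that fell, HIST1H2AJ (-1.36, or -0.26 with 1 RPKM added), lay below 0.5 RPKM and was named after its values were seen.

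HIST1H4D is the member in a gene list the study itself drew up for 10 µM enzalutamide, the dose of the ligand experiment, so its ligand values are no independent evidence. They were 0.033 and 0.0254 in vehicle, 0.118 and 0.122 in enzalutamide at 4 h, 0.0986 and 0.101 in enzalutamide at 24 h, 0.0566 and 0.0557 in DHT at 4 h, 0.0366 and 0.0255 in DHT at 24 h (CPM), at 33 counts in all, too few for a test. The siRNA libraries, at 25 µM, are not the source of that list. There it measured 0.155, 0.275 and 0.324 in siControl vehicle, 0.121, 0.0878 and 0.438 in siControl with enzalutamide, 0.238, 0.198 and 0.337 in siGATA2 vehicle, 0.603, 0.392 and 0.446 in siGATA2 with enzalutamide (RPKM). The groups overlap, siControl enzalutamide replicate 3 being above the lowest siGATA2 value (siGATA2 under enzalutamide: 1.03, or 0.29 with 1 RPKM added). The call was lost without siControl enzalutamide replicate 1 (0.85) or 2 (0.74), without siGATA2 enzalutamide replicate 1 (0.88) or 3 (1.06), and when only the groups compared were fitted.

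Enzalutamide in siControl cells raised 14 members and lowered 6 of 57, beside 17.7% of all genes up and 24.4% down, with a median of 0.15 for members and -0.02 for all genes. With each library centred on its own median the split was 19 up and 4 down. Counts up and down were 1 and 1 of the H1, 5 and 1 of the H2A, 5 and 3 of the H2B, 2 and 1 of the H3 and 1 and 0 of the H4 genes.

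HIST3H2A, the H2A gene of the HIST3 cluster, rose most of the abundant members, from 22.8, 18.8 and 22 to 40.6, 43.6 and 38.3 RPKM with a wide gap (log2 fold change 0.95, standard error 0.08, adjusted p = 8.03e-06, limma). HIST1H2BD measured 24.6, 23.9 and 25.5 in siControl vehicle, 39.7, 43.8 and 45.3 in siControl with enzalutamide, 43.9, 44.3 and 42.4 in siGATA2 vehicle, 43.1, 42 and 44.4 in siGATA2 with enzalutamide (RPKM). Only siControl vehicle was low, and the other 9 libraries lay close together (log2 fold change 0.79, standard error 0.05, adjusted p = 4.73e-07, limma). HIST1H2AK measured 3.18, 3.64 and 3.48 in siControl vehicle, 5.55, 6.2 and 5.45 in siControl with enzalutamide, 3.68, 4.34 and 3.82 in siGATA2 vehicle, 3.48, 4.07 and 4.15 in siGATA2 with enzalutamide (RPKM). Its siControl libraries with enzalutamide were the highest of the 12 (log2 fold change 0.72, standard error 0.09, adjusted p = 7.70e-05, limma). HIST1H1C (log2 fold change 0.54, standard error 0.06, adjusted p = 3.98e-05, limma) and HIST1H2AC (log2 fold change 0.52, standard error 0.07, adjusted p = 0.000132, limma) rose without overlap.

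The falls in siControl cells were mostly in low members. HIST1H2BJ had 1.71, 1.29 and 1.91 RPKM in vehicle and 0.798, 1.11 and 1.11 with enzalutamide (log2 fold change -0.65, standard error 0.15, adjusted p = 0.00573, limma), or -0.39 with 1 RPKM added. HIST2H2AC had 1.04, 1.55 and 1.44 RPKM in vehicle and 0.879, 0.885 and 0.981 with enzalutamide, a fold change of -0.49, or -0.29 with 1 RPKM added. Neither pair of groups overlapped, but the HIST2H2AC call was lost without siControl vehicle replicate 2 (-0.39) or 3 (-0.44). HIST1H2BK fell, with a fold change of -0.16, and lost the call without siControl vehicle replicate 1 (-0.16) or 3 (-0.12), siControl enzalutamide replicate 1 or 2 (-0.15 in each), and after centring (-0.11).

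In siGATA2 cells enzalutamide moved almost none of the histone genes, and few genes of any kind. Of 57 members 0 rose and 1 fell in limma, beside 0.221% of all genes up and 0.191% down, and 8 members had an unadjusted p below 0.05. The member that fell, HIST1H2BN, measured 2.94, 3.21 and 2.88 in siControl vehicle, 3.22, 3.66 and 3.34 in siControl with enzalutamide, 3.28, 3.11 and 2.94 in siGATA2 vehicle, 2.47, 2.28 and 2.16 in siGATA2 with enzalutamide (RPKM). The siGATA2 libraries with enzalutamide were the lowest of all (-0.42). The call was lost, and the count became 0, without siControl vehicle replicate 1 or 3, siControl enzalutamide replicate 1 or 3 or siGATA2 vehicle replicate 2 (-0.42 in each), siGATA2 vehicle replicate 1 (-0.38), and siGATA2 enzalutamide replicate 1 (-0.47), 2 (-0.41) or 3 (-0.38), and with a replicate block or only the groups compared (-0.42 in each).

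The interaction asks whether the enzalutamide difference itself differed between siGATA2 and siControl cells. It was higher for 1 member and lower for 12, beside 15% of all genes up and 10.8% down, with a median of -0.24 for members and 0.01 for all genes. HIST3H2A had a difference of 0.95 in siControl and 0.00 in siGATA2 cells (interaction: log2 fold change -0.95, standard error 0.12, adjusted p = 0.000262, limma). HIST1H2BD had 0.79 and -0.01 (interaction: log2 fold change -0.81, standard error 0.06, adjusted p = 1.80e-05, limma). HIST1H2AK had 0.72 and -0.02 (interaction: log2 fold change -0.74, standard error 0.12, adjusted p = 0.00162, limma). For these 3 genes, and for HIST1H1C at 0.54 and -0.01 (interaction -0.55), the enzalutamide rise measured in siControl cells was smaller in siGATA2 cells. HIST1H2BN had an interaction of -0.59. Interactions were above 0 for 19 of the 57 members and called for 1 of these, HIST1H1B (1.45, or 0.33 with 1 RPKM added), which averaged below 0.5 RPKM, was named after its values were seen and lost the call in 10 of 18 alternative settings. The siRNA comparisons share libraries with each other. A fold above 2 with an unadjusted p below 0.05 selected 1 of 57 members for enzalutamide in siControl cells (2.13% of all genes) and 1 in siGATA2 cells (0.191%), 18 for siGATA2 in vehicle (5.64%), 15 under enzalutamide (5.78%) and 4 for the interaction (1.81%).

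**Figure D4:**
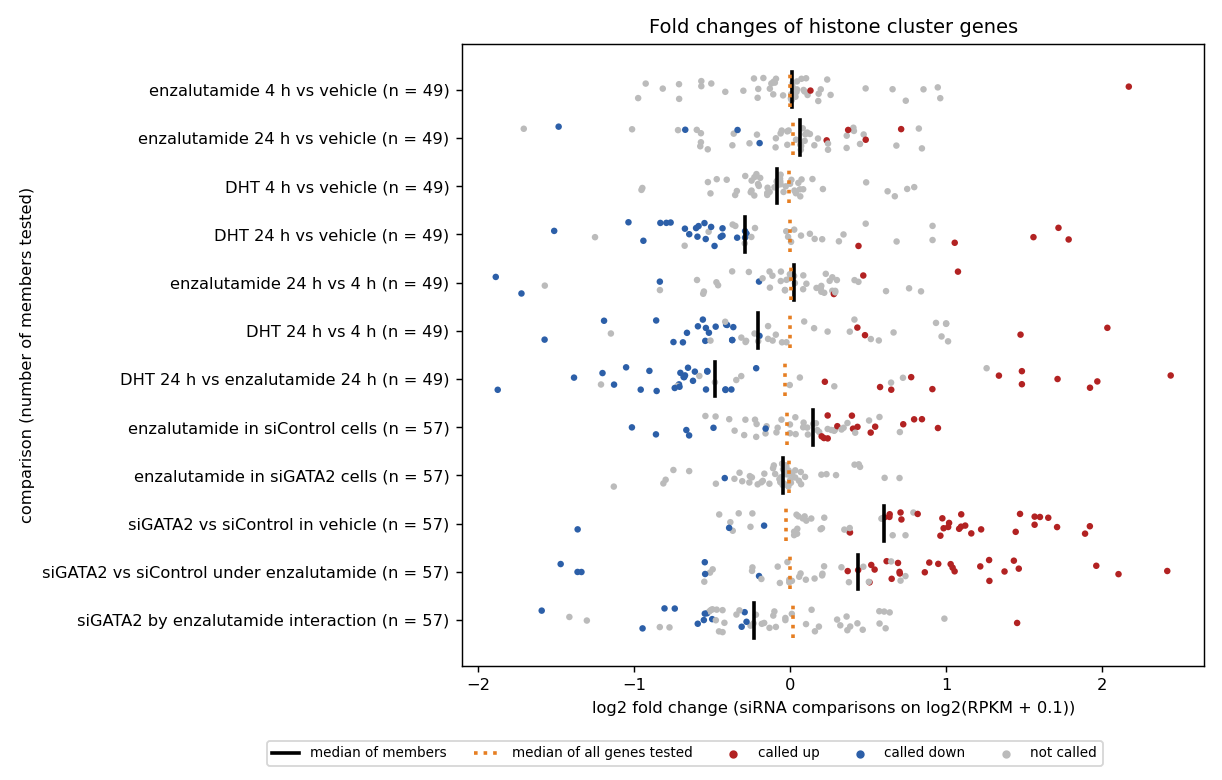
Log2 fold changes of the tested histone genes in the 12 comparisons, 1 point per gene, red and blue where called up and down, with the median of members as a black line and that of all genes as a dotted line. The member median is -0.29 for DHT at 24 h against vehicle and 0.60 for siGATA2 against siControl in vehicle.

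Genes of S phase and of other lists are given beside the histone genes, and no list was tested as a whole. For all lists, the shares of all genes called up and down were 26.9% and 23.2% with DHT at 24 h. They were 16.4% and 17% with enzalutamide at 24 h, and 17.7% and 24.4% with it in siControl cells. With siGATA2 they were 24.2% and 31.4% in vehicle and 26.3% and 28.1% under enzalutamide. All 32 S-phase genes of a fixed list rose with DHT at 24 h (median 0.87, all genes 0.00), all 32 fell with enzalutamide at 24 h (median -1.26), in siControl cells with enzalutamide (-1.57) and with siGATA2 in vehicle (-0.89), and 0 of 32 were called with enzalutamide in siGATA2 cells. Under enzalutamide, siGATA2 raised 28 and lowered 2 (median 0.52). Their summed level was 2508 and 2478 CPM in ligand vehicle, 1144 and 1102 with enzalutamide and 4368 and 4311 with DHT at 24 h. In the siRNA libraries it was 782, 769.5 and 778 RPKM in siControl vehicle, 309, 289 and 281 with enzalutamide, 432, 433 and 456 in siGATA2 vehicle and 399, 389 and 394 with enzalutamide. MCM4, a subunit of the replicative helicase, had 191 and 189.7 CPM in vehicle, 70.6 and 64.9 with enzalutamide and 368 and 366 with DHT at 24 h. The 3 groups were far apart (MCM4 with DHT: log2 fold change 0.95, standard error 0.04, adjusted p = 6.96e-10, edgeR). Their part in the histone results was not tested.

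The list of 23 genes for histone mRNA supply and 3′ processing gave 17 up and 0 down with DHT at 24 h (median 0.20), 0 and 16 with enzalutamide at 24 h (-0.21), 1 and 16 with enzalutamide in siControl cells (-0.31) and 2 and 15 with siGATA2 in vehicle (-0.22). With siGATA2 under enzalutamide it gave 10 up and 5 down (0.04). SLBP, which binds the stem-loop, measured 84.7 and 85.8 in vehicle, 77.1 and 78.2 in enzalutamide at 4 h, 59.1 and 59.6 in enzalutamide at 24 h, 86.5 and 89.3 in DHT at 4 h, 140.0 and 139 in DHT at 24 h (CPM). It was highest with DHT at 24 h and lowest with enzalutamide at 24 h (SLBP with DHT: log2 fold change 0.71, standard error 0.04, adjusted p = 5.35e-09, edgeR). In the siRNA experiment SLBP measured 29.3, 31 and 29.8 in siControl vehicle, 22.8, 22.5 and 23.7 in siControl with enzalutamide, 25.5, 25.1 and 24.7 in siGATA2 vehicle, 23.6, 25.2 and 25.6 in siGATA2 with enzalutamide (RPKM). The siControl vehicle libraries were above all others (SLBP with siGATA2 in vehicle: log2 fold change -0.26, standard error 0.03, adjusted p = 7.60e-05, limma). NPAT, the S-phase activator of histone genes, had 41.2 and 39 CPM in vehicle, 34.3 and 34.2 with enzalutamide and 51.2 and 45.2 with DHT at 24 h, the last 2 groups falling and rising against vehicle (NPAT -0.23 and 0.27). Their part in the histone results was not tested.

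Of 22 histone chaperones, which carry histones to and from DNA, 17 rose and 3 fell with DHT at 24 h, 1 rose and 19 fell with enzalutamide at 24 h, 0 and 20 with enzalutamide in siControl cells, and 3 and 16 with siGATA2 in vehicle. With siGATA2 under enzalutamide 11 rose and 9 fell (median 0.07). ASF1B had 25, 25.2 and 24.5 RPKM in siControl vehicle and 4.22, 4.1 and 4.2 in siGATA2 vehicle, groups that lay far apart (ASF1B: log2 fold change -2.55, standard error 0.05, adjusted p = 9.08e-11, limma). Its part in the histone results was not tested.

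Of 12 histone genes listed as replication-independent, 5 rose and 2 fell with DHT at 24 h, beside 26.9% and 23.2% of all genes. With enzalutamide at 24 h 1 rose and 9 fell (all genes 16.4% and 17%), and 1 and 5 in siControl cells with enzalutamide (17.7% and 24.4%). With siGATA2 in vehicle 4 rose and 5 fell, beside 24.2% and 31.4% of all genes. The list was not tested against all genes. H2AFX, the variant phosphorylated at DNA breaks, measured 85.5, 83.9 and 87.2 in siControl vehicle, 44.2, 45.6 and 42.3 in siControl with enzalutamide, 45.3, 42.2 and 42.7 in siGATA2 vehicle, 37.6, 37 and 35.3 in siGATA2 with enzalutamide (RPKM). The siControl vehicle libraries stood above the rest (H2AFX with siGATA2 in vehicle: log2 fold change -0.98, standard error 0.04, adjusted p = 6.40e-09, limma). H3F3B, which codes for H3.3, measured 127, 128 and 131 in siControl vehicle, 131, 127 and 127 in siControl with enzalutamide, 226, 243 and 227 in siGATA2 vehicle, 227, 227 and 223 in siGATA2 with enzalutamide (RPKM). Here the siGATA2 libraries stood above the siControl ones (H3F3B: log2 fold change 0.85, standard error 0.03, adjusted p = 5.37e-09, limma).

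Poly(A) polymerase and exosome genes, which add tails to and degrade nuclear RNA, made a list of 9. With DHT at 24 h 4 rose and 0 fell, beside 26.9% and 23.2% of all genes. With enzalutamide at 24 h 0 rose and 3 fell (all genes 16.4% and 17%), and 1 and 6 with it in siControl cells (17.7% and 24.4%). With siGATA2 in vehicle 1 rose and 4 fell, beside 24.2% and 31.4% of all genes. With siGATA2 under enzalutamide 3 rose and 2 fell (26.3% and 28.1%). The list was not tested against all genes. EXOSC10, the nuclear exosome nuclease, measured 21.8, 22.7 and 22 in siControl vehicle, 16.3, 17 and 16.6 in siControl with enzalutamide, 17.1, 16.8 and 18.7 in siGATA2 vehicle, 17.8, 17.1 and 17.2 in siGATA2 with enzalutamide (RPKM). Its siControl vehicle libraries were the highest (EXOSC10 with siGATA2 in vehicle: log2 fold change -0.34, standard error 0.04, adjusted p = 2.56e-05, limma). Its part in the histone results was not tested.

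RNAs without a poly(A) tail were listed to show the level of untailed RNA in the libraries. Of 51 listed, 36 were in the ligand tables and 11 could be tested, and 37 and 27 in the siRNA experiment. With DHT at 24 h 1 rose and 1 fell, beside 26.9% and 23.2% of all genes. With siGATA2 in vehicle 2 rose and 1 fell, beside 24.2% and 31.4% of all genes. Their sum was 13.9 and 11.1 CPM in ligand vehicle, 7.55 and 7.44 with enzalutamide at 4 h, 9.05 and 13.3 with it at 24 h, 32.1 and 6.91 with DHT at 4 h and 18.2 and 8.43 with it at 24 h. It was 14.2, 16.5 and 16.1 RPKM in siControl vehicle, 23.1, 22.2 and 18.6 with enzalutamide, 17.5, 19.1 and 20.8 in siGATA2 vehicle and 18.5, 34.7 and 18.9 with enzalutamide. The first DHT 4 h library and the second siGATA2 enzalutamide library were the highest; RPPH1 and RMRP were the most abundant. The histone sum was 508 CPM in both DHT 4 h libraries. The second siGATA2 enzalutamide library had the highest histone sum of its group, 925 RPKM, and the part of untailed RNA in that was not tested.

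The 10 LNCaP epithelial markers were all present in both experiments and moved with the conditions. They summed to 1631, 1545 and 1607 RPKM in siControl vehicle, 983, 962 and 912 with enzalutamide, 794, 810.3 and 804 in siGATA2 vehicle and 767, 764 and 774 with enzalutamide, and 3 rose and 6 fell with siGATA2 in vehicle (median -1.26). In the ligand experiment they summed to 4135 and 4074 CPM in vehicle, 3967 and 3970 with enzalutamide at 24 h and 6632 and 6699 with DHT at 24 h, where 7 rose and 2 fell (median 1.37). Of the 3 basal markers, KRT14 was the most abundant, and their sum was at most 0.113 RPKM in any siRNA library; in the ligand experiment it was 0.033 and 0.127 CPM in vehicle and 0.439 and 0.484 with DHT at 24 h. The 3 endothelial markers, nearly all VWF, summed to 0.994, 0.954 and 0.969 RPKM in siControl vehicle, 0.496, 0.499 and 0.371 with enzalutamide, 1.26, 1.3 and 1.26 in siGATA2 vehicle and 0.861, 0.865 and 0.801 with enzalutamide. The 5 stromal markers, mostly COL1A1, summed to 12.8, 11.8 and 12.7 RPKM in siControl vehicle, 15.6, 15.2 and 14.5 with enzalutamide, 17.2, 15.8 and 13.7 in siGATA2 vehicle and 15, 16.9 and 14.8 with enzalutamide. The stromal collagen COL1A2 did not exceed 0.00248 RPKM in this experiment. In the ligand experiment the endothelial sum was 15.6 and 16.4 CPM in vehicle, 9.05 and 8.47 with enzalutamide at 24 h and 21.4 and 20.7 with DHT at 24 h, and the stromal sum was 26.3 and 27.3 CPM in vehicle, 28.2 and 31.2 with enzalutamide and 16.3 and 19 with DHT. The 3 leukocyte markers summed to 3.84, 3.54 and 3.83 RPKM in siControl vehicle, 4.59, 4.85 and 5.32 with enzalutamide, 11.8, 12.2 and 10.5 in siGATA2 vehicle and 11.5, 11 and 11.1 with enzalutamide, nearly all of it CD68, a lysosomal protein that other cells also make. The defining T cell marker CD3E was at 0 in all 12 libraries and the leukocyte marker PTPRC did not exceed 0.00736 RPKM. With siGATA2 in vehicle, limma called VWF, COL1A1 and CD68 up (0.35, 0.54 and 1.60) and the stromal markers ACTA2 and COL3A1 and the basal marker KRT14 down (-1.001, -2.35 and -0.68), and with DHT at 24 h edgeR called VWF, CD68 and KRT14 up (0.40, 0.97 and 3.49) and COL1A1 down (-0.65). Their part in the histone results was not tested.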

How the data were processed

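The authors deposited estimated counts per gene for the ligand experiment and RPKM for the siRNA experiment; per their processing notes, reads were aligned with TopHat2 2.0 to hg19 and quantified in Partek. The GRCh38 positions and promoters come from GENCODE and RefSeq, not from the deposited tables. The members and lists were chosen with earlier results of these data known.

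Ligand counts were rounded, the 3 vehicle columns with replicate number 1 were summed (they differed from each other by a mean chi-square per gene of 1.53 to 1.56, against 3.56 to 3.74 from number 2, although the labels list 4 biological replicates), and 10 libraries of 38894876 to 59985287 counts were fitted in edgeR 4.0.16 with TMM, filterByExpr and the quasi-likelihood test over 15555 genes; CPM are scaled by TMM. The enzalutamide 4 h replicates differed most (9.83, other pairs 2.03 to 4.57). The 12 siRNA libraries were fitted with limma 3.58.1 (trend) on log2 of RPKM plus 0.1 over 20369 genes above 0 in at least 3 libraries; that experiment was analysed from RPKM alone. DESeq2 1.42.0 was the second tool, under R 4.3.3, and Python 3.11.15 with matplotlib 3.10.9 made tables and figures.

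The fits were tested on simulated data. For the siRNA fit the first draw, from all tested genes, only met and did not exceed its limit for changed genes recovered, so the limit was then applied to genes of at least 0.5 RPKM. Below that level, where many members lie, fewer changed genes were recovered.

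Members were named if among the 10 highest by mean RPKM, if among the 5 largest called changes in a direction without overlap and with a mean of at least 1 CPM or 0.5 RPKM (for the interaction, without the condition on overlap), or if in the study's own list. Genes of the other lists were taken from the called genes with the smallest adjusted p, at most 3 for each list and comparison, plus SLBP, NPAT, GATA2 and KLK3. Not all of these are shown, and the rule did not set which were. RMRP and the single markers of other cell types were named outside this rule. Replicate labels (biological replicate in the ligand experiment, numbers alone in the siRNA experiment) do not say that replicates are separate cultures, so p measures only the spread between these samples. Replicates with the same number were not treated as pairs; in the siRNA experiment only siControl and siGATA2 under enzalutamide had residual correlations all above 0.1 (0.113, 0.241 and 0.148), and in the ligand experiment, with 1 correlation per pair of groups, vehicle with DHT at 24 h (0.143) and enzalutamide at 4 with 24 h (0.101) did. Alternatives were other tools, normalizations, filters, pseudocounts, a replicate block and leaving out each library. Library totals without TMM were added as an alternative after the data had been seen.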

Additional observations from a re-analysis of the deposited data

Results flagged for a closer look

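Histone genes whose response to enzalutamide differed between siGATA2 and siControl cells were picked out by the test of that difference. The difference, siGATA2 minus siControl in log2, was -0.81 for HIST1H2BD, -0.95 for HIST3H2A, -0.55 for HIST1H1C, -0.74 for HIST1H2AK and -0.59 for HIST1H2BN. It was -0.28 for HIST2H2BE, -0.53 for HIST1H2AC, -0.55 for HIST1H3D, -0.31 for HIST1H3H and -0.29 for HIST1H2AM. These are members named by the rule; of the other 3 called, HIST1H2AE (-0.50) and HIST1H2BB (-1.59, or -0.46 with 1 RPKM added) were also negative and HIST1H1B was positive, at 1.45, or 0.33 with 1 RPKM added. The HIST1H2AM and HIST1H1B calls were each lost in 10 of 18 alternative settings. All of these genes share the same 12 libraries.

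Other genes were picked out because their difference from vehicle changed between 4 and 24 h, by the test of that change. For enzalutamide the later minus the earlier difference was -0.20 for HIST1H2BK, 0.28 for HIST2H3PS2 and 0.47 for HIST1H2AI, members named by the rule. It was also called for HIST1H4K (-1.72), HIST1H2AL (-1.89), HIST2H2AC (-0.84) and HIST1H3J (1.07), which averaged below 1 CPM. For DHT the later minus the earlier difference was -0.54 for HIST2H2BE, -0.54 for HIST1H2BD, -0.69 for HIST1H2BC, -0.66 for HIST1H2BG and -0.75 for HIST2H2BF among the H2B genes. Among the H2A and H3 genes it was -0.40 for HIST1H2AC, -0.59 for HIST1H2AK, -0.56 for HIST1H3D, -0.41 for HIST1H3E and -0.48 for HIST2H3PS2. The H1 gene HIST1H1C gave -0.20, and the H4 genes HIST1H4H and HIST1H4J gave -0.52 and -0.86. Differences in the other direction were 1.48 for HIST1H4C, 0.43 for HIST2H2BC and 0.48 for HIST1H2BL. These are members named by the rule. HIST1H4K (2.03), HIST1H3J (-1.57) and HIST2H3D (-1.19) were also called between the DHT times and averaged below 1 CPM. So were HIST1H2AE and the paired entries HIST2H2AA3 and HIST2H2AA4 (-0.37 for each), at higher levels. The call was lost in 1 setting for HIST1H4K, 2 for HIST1H3J, 5 for HIST2H3D and 7 for HIST1H2AE. The vehicle libraries cancel in these differences, which are those between the 24 h and the 4 h libraries. For both ligands the columns of these times have different prefixes, and vehicle replicate 1 has a column under each. For DHT the HIST1H3D value ran from -0.75 to -0.35 over 17 alternative settings and its call was lost in 3, and the HIST1H3E call was lost in 5.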

How the results depend on the processing

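Of 225 counts of members called under alternative settings, 182 stayed within 1.5 times the reported count and 43 moved; of 1181 values for the 66 calls chosen by the naming rule, 1081 kept their call, 100 kept their direction but lost it and 0 reversed. Of 2354 values for the other 132 member calls, counted after seeing the data, 2127 kept theirs, 227 lost it and 0 reversed. Leaving out 1 library at a time gave 1 to 4 members called for enzalutamide at 4 h, 3 to 8 at 24 h and 2 to 5 between these times, 0 to 0 for DHT at 4 h, 18 to 27 at 24 h and 15 to 24 between these times, and 28 to 38 for DHT against enzalutamide. It gave 16 to 20 for enzalutamide in siControl cells, 0 to 1 in siGATA2 cells, 27 to 30 for siGATA2 in vehicle, 24 to 33 under enzalutamide and 11 to 14 for the interaction. A library left alone in its group was assumed to vary like the others. DESeq2 called 1 for enzalutamide at 4 h, 5 at 24 h, 2 between the times and 14 between the DHT times. Without a filter on low counts 4 were called for enzalutamide at 4 h and 12 between its times. Fitting only the groups compared gave 1 for enzalutamide at 4 h and 0 in siGATA2 cells, where a replicate block also gave 0. A fold above 2 with an unadjusted p below 0.05 selected 1, 2 and 4 members for enzalutamide at 4 h, at 24 h and between them, 6 for DHT at 24 h, 5 between the DHT times, 13 for DHT against enzalutamide, 1 for enzalutamide in siControl cells, 18 and 15 for siGATA2 in vehicle and under enzalutamide, and 4 for the interaction. Library totals without TMM, chosen after seeing the data, moved none of the counts beyond 1.5 times. In each case the cause was not tested. Depth limits the 38 members below 1 CPM and the 39 below 1 RPKM. No library was made to measure histone mRNA without a poly(A) tail, but some untailed RNA was present in all of them. Its part in the histone values, above all of weak members, cannot be told apart.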
